A study of Mus musculus with 18 samples.

Results

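The collagen genes other than type IV are the protein-coding genes of the table whose symbol is Col, a number, the letter a and a number, with the type IV genes left out. Of the 54532 genes in the table, 38 met this rule, and 6 type IV genes were left out. In at least 1 of the 6 groups 25 of the 38 reached a mean of 0.5 FPKM (read counts scaled to gene length and library size). The other 13 stayed below 0.5 FPKM in all groups and enter only as that count. The 25 comprise 9 fibrillar chains, 6 fibril-associated chains, 3 type VI chains, 2 short-chain network chains, 1 anchoring fibril chain, 2 membrane-spanning chains, 1 multiplexin chain and Col26a1.

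Polyadenylated RNA was sequenced from mouse ES-E14TG2a embryonic stem cells, kept as 3 lines named Arf-B, Arf-C and Ctrlv2. Each line was sampled after 8 days of differentiation and on day 0, in 3 libraries each. All groups carry the genotype label wild type, Arf-B and Arf-C included. The series title names p19Arf and pancreatic lineage differentiation. The sources used here do not give how Arf-B and Arf-C were made or whether each is a clone. All 3 lines shared the same culture steps, with activin A and Matrigel from the start and then retinoic acid and FGF10 from day 4 until day 8. The labels number the replicates and do not call them separate cultures, so the p-values measure the spread between these libraries. Reads on genes per library ranged from 10432590 to 33311220, and no library stood apart from its group. The 5 markers of undifferentiated stem cells summed to 1472 to 1606 FPKM in Arf-B, 1621 to 1665 FPKM in Arf-C and 1842 to 1926 FPKM in Ctrlv2 libraries of day 0, with no overlap between lines. In the limma test described below, 0 of the 5 markers differed from Ctrlv2 at day 0 in Arf-B and 1, lower, in Arf-C. Pou5f1 averaged 494, 462 and 657 FPKM in Arf-B, Arf-C and Ctrlv2 cells of day 0, and Nanog 267, 323 and 262 FPKM.

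Collagens are secreted or membrane-bound proteins whose chains wind around each other into a rope-like helix of trimers. Fibrillar collagens are trimmed outside the cell and pack into cross-linked fibrils, and fibril-associated collagens (FACITs) sit on the surface of those fibrils. Type VI collagen forms beaded microfibrils, type VIII collagen forms lattices, and type XVIII collagen is a proteoglycan of basement membranes whose C-terminal fragment is endostatin. Inside the cell, enzymes hydroxylate the chains and chaperones help them fold and pair with their partner chains before secretion.

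The promoters of 5 members are printed because these members move in opposite directions between the lines at day 8 (Col18a1 and Col9a2 higher, Col6a1, Col6a2 and Col1a2 lower in Arf cells). Col18a1 has a pair of annotated starts, which give long and short forms, and the gene-level values do not separate them. Col6a2 also has a pair of annotated starts, of which only the downstream one is printed. The sequences are RefSeq's, build GRCm38.p6, 250 bases that end just before the annotated start, written 5′ to 3′ along the gene. Capitals mark a CCAAT box (CCAAT) or a GC box (GGGCGG), found by their letters on either strand. The upstream window of Col6a2 (chr10:76623631-76623880, not printed) holds 1 GC box, against 3 in the printed window.

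Col18a1, upstream start (chr10:77166531-77166780, minus strand): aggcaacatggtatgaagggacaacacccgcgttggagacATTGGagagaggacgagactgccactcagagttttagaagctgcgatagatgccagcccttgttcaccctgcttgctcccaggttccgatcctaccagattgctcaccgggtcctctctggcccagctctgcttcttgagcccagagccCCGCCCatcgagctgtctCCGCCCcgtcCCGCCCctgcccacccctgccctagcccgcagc
Col18a1, downstream start (chr10:77113706-77113955, minus strand): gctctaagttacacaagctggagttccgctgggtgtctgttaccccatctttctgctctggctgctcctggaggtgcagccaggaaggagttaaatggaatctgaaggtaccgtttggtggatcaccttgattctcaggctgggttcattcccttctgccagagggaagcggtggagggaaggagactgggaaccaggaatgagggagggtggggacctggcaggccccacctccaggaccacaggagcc
Col9a2 (chr4:121039316-121039565, plus strand): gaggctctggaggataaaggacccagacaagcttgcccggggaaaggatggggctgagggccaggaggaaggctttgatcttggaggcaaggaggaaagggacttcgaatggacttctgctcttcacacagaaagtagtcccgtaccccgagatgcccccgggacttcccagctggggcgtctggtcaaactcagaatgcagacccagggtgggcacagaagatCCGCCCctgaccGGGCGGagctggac
Col6a1 (chr10:76726045-76726294, minus strand): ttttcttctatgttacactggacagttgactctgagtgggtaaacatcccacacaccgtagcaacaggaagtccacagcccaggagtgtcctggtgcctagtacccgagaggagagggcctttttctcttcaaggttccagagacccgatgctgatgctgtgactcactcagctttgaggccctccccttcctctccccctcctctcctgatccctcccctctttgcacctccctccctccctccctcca
Col6a2 (chr10:76623405-76623654, minus strand): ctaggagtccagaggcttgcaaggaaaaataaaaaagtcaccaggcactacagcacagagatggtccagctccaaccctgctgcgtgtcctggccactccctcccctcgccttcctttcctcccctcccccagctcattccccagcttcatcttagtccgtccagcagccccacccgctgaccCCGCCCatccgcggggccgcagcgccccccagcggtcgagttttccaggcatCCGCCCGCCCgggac
Col1a2 (chr6:4505368-4505617, plus strand): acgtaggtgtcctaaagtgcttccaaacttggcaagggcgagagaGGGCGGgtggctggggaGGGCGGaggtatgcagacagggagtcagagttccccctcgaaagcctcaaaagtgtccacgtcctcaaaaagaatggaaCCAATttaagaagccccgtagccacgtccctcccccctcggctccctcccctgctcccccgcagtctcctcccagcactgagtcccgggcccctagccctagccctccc

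Promoter entries matched 18 of the 25 named members, in 20 windows. Of these 20 windows, 16 held the GC box, 7 the CCAAT box and 2 a TATA box, searched as TATAAA, on either strand, with overlapping copies each counted. Among all 32851 windows of the same length the shares were 32.7% for the GC box, 33.8% for the CCAAT box and 12.4% for the TATA box. A match describes these letters and not a bound site.

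Collagen transcripts were more abundant at day 8 than at day 0 in all 3 lines, and Col18a1 made up most of them. The members' FPKM summed to 225 ± 1.44 in Arf-B, 240 ± 7.53 in Arf-C and 193 ± 11.9 in Ctrlv2 cells at day 8 (SD, n = 3 each), and to 52.2 ± 5.43, 44 ± 2.55 and 51.4 ± 2.22 in Arf-B, Arf-C and Ctrlv2 cells at day 0. Col18a1 was 79.6% ± 0.706, 80.4% ± 1.42 and 76.3% ± 0.27 of that sum at day 8 in Arf-B, Arf-C and Ctrlv2 cells, and 71.3% ± 3.09, 63.3% ± 1.39 and 64.3% ± 1.07 at day 0. Without Col18a1 the day 8 sums lay close together, at 46 ± 1.32, 47 ± 2.95 and 45.7 ± 3.14 FPKM in Arf-B, Arf-C and Ctrlv2 cells. Those 3 sums differed by less than the spread between libraries, although single chains differed between lines, as given below.

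**Figure D1:**
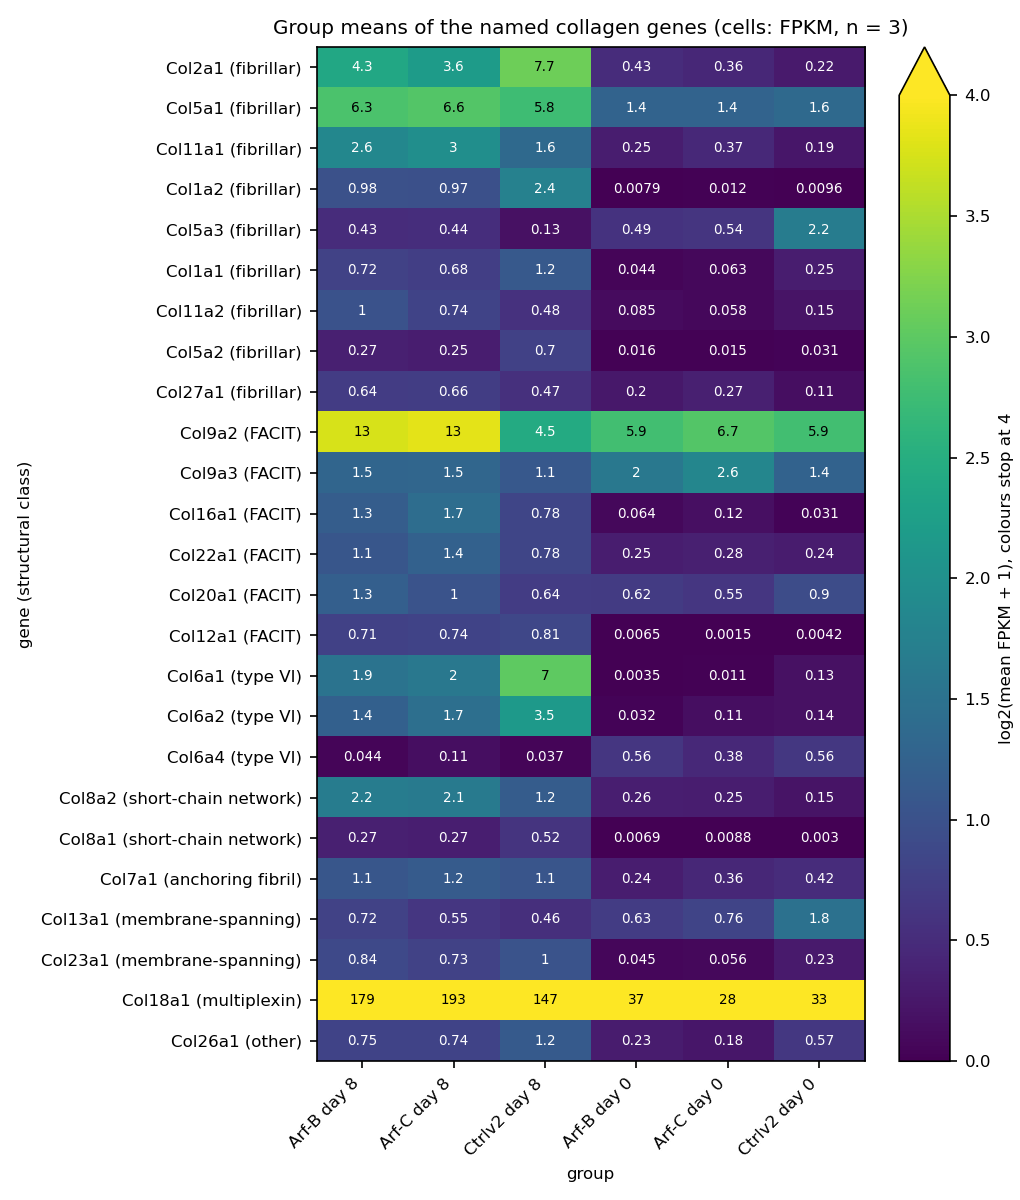
Mean FPKM (numbers in the cells, n = 3 libraries per group) of the 25 named collagen genes, ordered by structural class, with day 8 groups left of day 0 groups; the colour is log2(mean FPKM + 1) and stops at 4. Col18a1 is the most abundant in every group, and most other rows are darker at day 0 than at day 8.

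Of the 38 members 24 passed the filter of at least 0.5 FPKM in at least 3 libraries and entered limma's test on log2(FPKM + 1), in which a gene was called at a Benjamini-Hochberg adjusted p below 0.05 over all 17200 genes tested. All log2 changes below are on this scale, which understates the change of genes near 0. At day 8 against day 0, 20 members were higher and 2 lower in Arf-B cells, 20 higher and 2 lower in Arf-C cells, and 18 higher and 4 lower in Ctrlv2 cells. Of all genes tested 66.7%, 66.6% and 68.3% were called in Arf-B, Arf-C and Ctrlv2 cells, with 32.9%, 32.8% and 33.9% higher and 33.8%, 33.8% and 34.4% lower. Many members passed the filter through their day 8 libraries alone: 14, 15 and 15 of the 24 reached 0.5 FPKM in a library at day 8 and in none at day 0 in Arf-B, Arf-C and Ctrlv2 cells. Among the members that reached 0.5 FPKM on both days, 5 of 8 were higher and 1 lower in Arf-B, 4 of 7 higher and 1 lower in Arf-C, and 3 of 7 higher and 2 lower in Ctrlv2 cells.

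**Figure D2:**
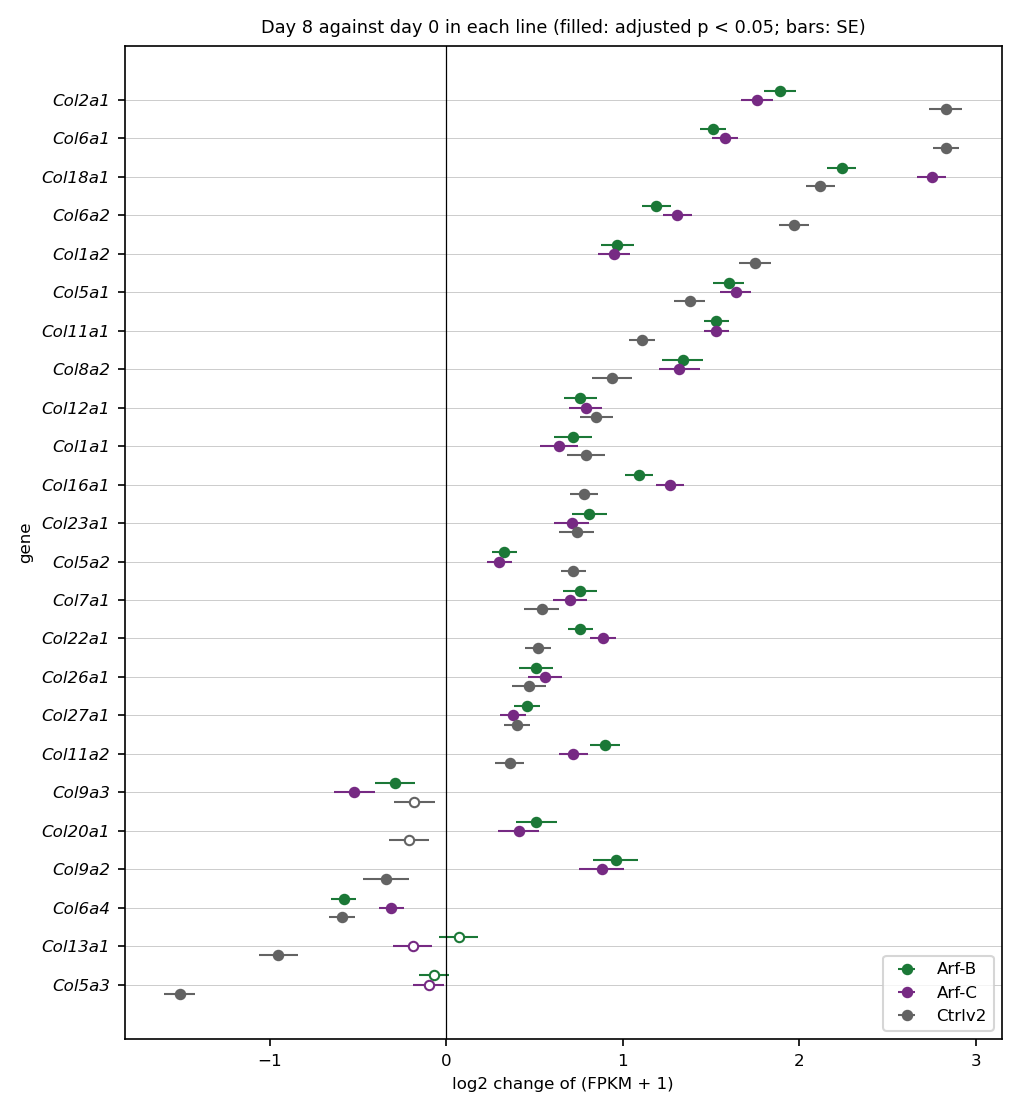
Log2 change of (FPKM + 1) at day 8 against day 0 for the 24 tested members, ordered by the change in Ctrlv2, in Arf-B, Arf-C and Ctrlv2 cells; bars are standard errors and filled points have an adjusted p below 0.05. For Col2a1, Col6a1, Col6a2 and Col1a2 the Ctrlv2 point lies right of both Arf points, and Col9a2 lies right of 0 in both Arf lines and left of 0 in Ctrlv2.

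Between lines at day 8, both Arf lines differed from Ctrlv2 in 16 members, 9 higher and 7 lower in each. Of all genes tested 33.2% were called for Arf-B (16.3% higher, 16.9% lower) and 33.6% for Arf-C (16.8% higher, 16.8% lower). With libraries scaled to the same sum the members split into 10 higher and 6 lower for Arf-B and 10 higher and 7 lower for Arf-C. The 9 higher members were the same in both lines (Col9a2, Col11a1, Col8a2, Col16a1, Col20a1, Col5a3, Col11a2, Col18a1 and Col22a1), where 13.1% of all genes tested were higher in both. The 7 lower members were also the same (Col6a1, Col2a1, Col6a2, Col1a2, Col5a2, Col1a1 and Col26a1), where 14.2% of all genes were lower in both. Both comparisons use the same 3 Ctrlv2 libraries. At day 8, 21 of the 24 members reached 0.5 FPKM in both groups of each comparison, and 8 of these 21 were higher and 6 lower in each line. Without each library in turn and under every other setting tried in which the member was tested, 10 of the 16 kept their calls in both lines. These were Col9a2, Col11a1, Col8a2, Col16a1 and Col5a3 among the higher and Col6a1, Col2a1, Col6a2, Col1a2 and Col5a2 among the lower members. Col5a2 passed the filter only through the 3 Ctrlv2 libraries of day 8, so it was not tested without any of them. Col5a3 was not tested in the fits of the compared groups alone.

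**Figure D3:**
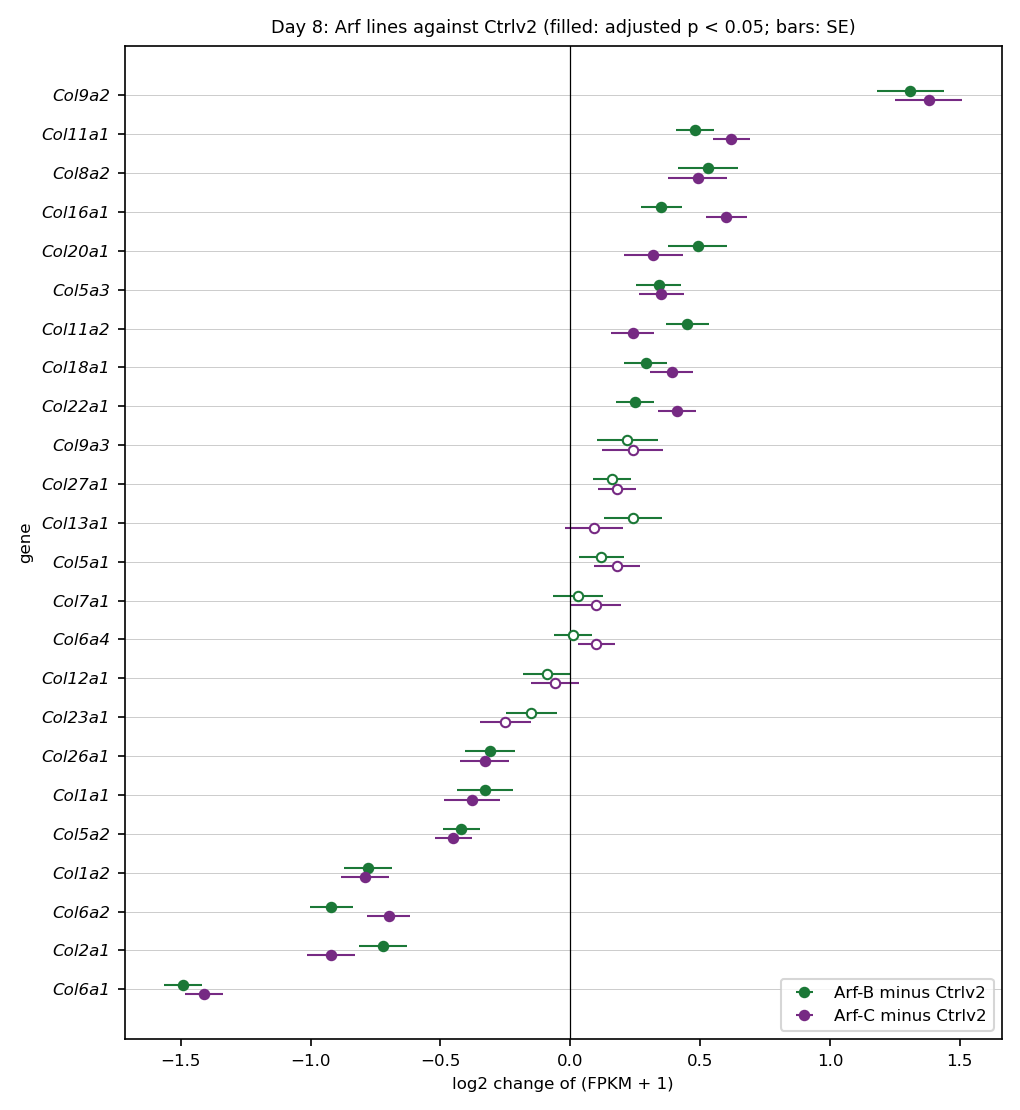
Log2 change of (FPKM + 1) at day 8 in Arf-B and Arf-C cells against Ctrlv2 cells for the 24 tested members, with standard errors; filled points have an adjusted p below 0.05. Col9a2 lies farthest to the right (1.31 and 1.38) and Col6a1 farthest to the left (-1.49 and -1.41).

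Markers of other cell states also differed between the lines at day 8. All 5 stem cell markers were higher in both Arf lines, their sum being 142 to 197 FPKM in Arf-B, 117 to 219 FPKM in Arf-C and 40.7 to 47.2 FPKM in Ctrlv2 libraries. All 5 tested markers of parietal endoderm (of 6, Sparc among them) were lower, with sums of 79.7 to 86.9, 81.7 to 93.2 and 227 to 285 FPKM. All 4 tested markers of smooth muscle (of 5) were lower, with sums of 6.84 to 7.47, 6.07 to 6.7 and 25.1 to 34.4 FPKM. The 8 fibroblast and mesenchyme markers summed to 15.7 to 17, 14.9 to 15.8 and 13.4 to 16.8 FPKM in Arf-B, Arf-C and Ctrlv2 libraries of day 8, with Lum, a defining marker, at 0 in Ctrlv2 and Dcn and Lum at 0 in all day 0 libraries. Of the 4 definitive endoderm markers 2 were lower in each Arf line and 1 was higher in Arf-C. They summed to 10.3 to 12, 11.9 to 14.5 and 27.4 to 32.1 FPKM, of which Gata4 made up a mean of 6.39 FPKM in Arf-B, 7.01 FPKM in Arf-C and 25 FPKM in Ctrlv2. The bone, skin and notochord markers summed to at most 1.08 FPKM in any library. The part of these cell states in the collagen results was not tested, and in bulk RNA fewer cells of a type and less RNA per cell cannot be told apart.

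The change over the protocol itself differed from Ctrlv2 in 12 members for Arf-B, 7 with a positive and 5 with a negative difference, and in 15 members for Arf-C, 10 positive and 5 negative. Of all genes tested 33.5% were called for Arf-B (17.5% positive, 16.1% negative) and 38.3% for Arf-C (19.4% positive, 18.9% negative). The 5 negative members on this scale were the same in both lines, namely Col6a1, Col2a1, Col6a2, Col1a2 and Col5a2. Only 6 of the 12 and 6 of the 15 calls held under every setting tried, and of the negative members only Col2a1 did so. For members near 0 at day 0 the difference depends on the scale. On the scale of read ratios (limma voom) the sign turned for Col6a1 in both lines (2.56 in Arf-B and 1.53 in Arf-C), Col16a1 in both lines (-0.63 and -0.99), Col6a2 in Arf-B (0.76), and Col11a1 (-0.09) and Col5a2 (0.22) in Arf-C. Of these only Col6a1 in Arf-B was itself called with the turned sign (adjusted p = 0.0158, limma voom). On that scale Col1a2 kept its sign without a call in both lines (adjusted p = 0.554 and 0.209), as did Col5a2 in Arf-B (0.747) and Col6a2 in Arf-C (0.563). With a pseudocount of 0.1 the calls of Col6a2 and Col5a2 ended in both lines (adjusted p = 0.35 and 0.117 for Col6a2, 0.0871 and 0.0602 for Col5a2), and that of Col6a1 ended in Arf-B (0.0521).

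At day 0, where most members were near 0, 1 member was higher and 3 lower in Arf-B than in Ctrlv2 cells, and 3 were higher and 5 lower in Arf-C. Of all genes tested 39% (19.1% higher, 20% lower) and 42.8% (21.2% higher, 21.5% lower) were called. Shared by both lines were Col9a3, higher (16.4% of all genes tested were higher in both), and Col5a3, Col13a1 and Col26a1, lower (17.2%). The counts called, 4 and 8 here, were 10 and 13 with a pseudocount of 0.1 and 11 and 15 with limma voom on read counts. The count for Arf-C at day 0 was 4 or 5 without replicate 1, 2 or 3 of Ctrlv2 (4, 5 and 5) or replicate 1 or 3 of Arf-C (4 each). The members called in Arf-C cells alone, Col18a1, Col20a1, Col11a1 and Col27a1, all lost their call without at least 1 library. At day 0 the parietal endoderm markers summed to 30.8 to 36.9 FPKM in Arf-B, 28.8 to 30.1 FPKM in Arf-C and 85.3 to 99.7 FPKM in Ctrlv2 libraries. Sparc made up most of these sums (means of 26.8, 24.8 and 88.1 FPKM). Of the 5 tested, 1 was lower in Arf-B and 2 in Arf-C, and none was higher. The fibroblast and mesenchyme markers summed to 4.87 to 7.16, 4.86 to 6.41 and 17.2 to 19.9 FPKM. Of the 4 tested, 1 was higher and 2 lower in each Arf line. Thy1 had means of 2.59, 2.01 and 15.7 FPKM, and Twist1 of 2.43, 2.55 and 1.51 FPKM. The part of these markers in the day 0 differences was not tested. Between Arf-B and Arf-C no member was called at either day by limma, where 0.343% of all genes tested were called at day 0 and 0.0581% at day 8. An unadjusted p below 0.05 was found for 3 members at day 0 and 5 at day 8, and limma voom on read counts called 1 at day 0 and 0 at day 8.

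Col18a1 (ENSMUSG00000001435, chr10:77052178-77166548, minus strand; gene positions are those of the table, mm10) encodes the type XVIII chain. At day 8 it had 179, 182 and 176 FPKM in Arf-B, 194, 201 and 184 FPKM in Arf-C and 146, 138 and 156 FPKM in Ctrlv2 libraries. At day 0 it had 34.4, 34.1 and 43.4 FPKM in Arf-B, 26.7, 30.4 and 26.5 FPKM in Arf-C and 34.3, 33.9 and 31 FPKM in Ctrlv2 libraries. Every day 8 library thus lay above every day 0 library, and the day 8 libraries of both Arf lines lay above those of Ctrlv2. The rise by day 8 was 4.8-fold in Arf-B, 6.93-fold in Arf-C and 4.44-fold in Ctrlv2 cells (log2 2.24, 2.75 and 2.12, SE 0.0836 each, adjusted p = 1.80e-12, 1.91e-13 and 2.59e-12, limma). At day 8 Arf-B cells had 1.22-fold more Col18a1 (log2 0.29, adjusted p = 0.0154, limma) and Arf-C cells 1.32-fold more (log2 0.39, adjusted p = 0.00178) than Ctrlv2 cells. The Arf-B call was lost without replicate 2 of Ctrlv2 at day 8 (log2 0.24, adjusted p = 0.0663, limma). The day response itself was larger in Arf-C than in Ctrlv2 (difference 0.63, SE 0.118, adjusted p = 0.000621, limma). At day 0 Arf-C cells had less Col18a1 than Ctrlv2 cells (log2 -0.24, adjusted p = 0.03), a call that ended on leaving out Ctrlv2 replicate 1 (0.0967) or 2 (0.0789) or Arf-C replicate 1 (0.0938) or 3 (0.108). For Arf-B the difference in day response was 0.12 (adjusted p = 0.462).

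**Figure D4:**
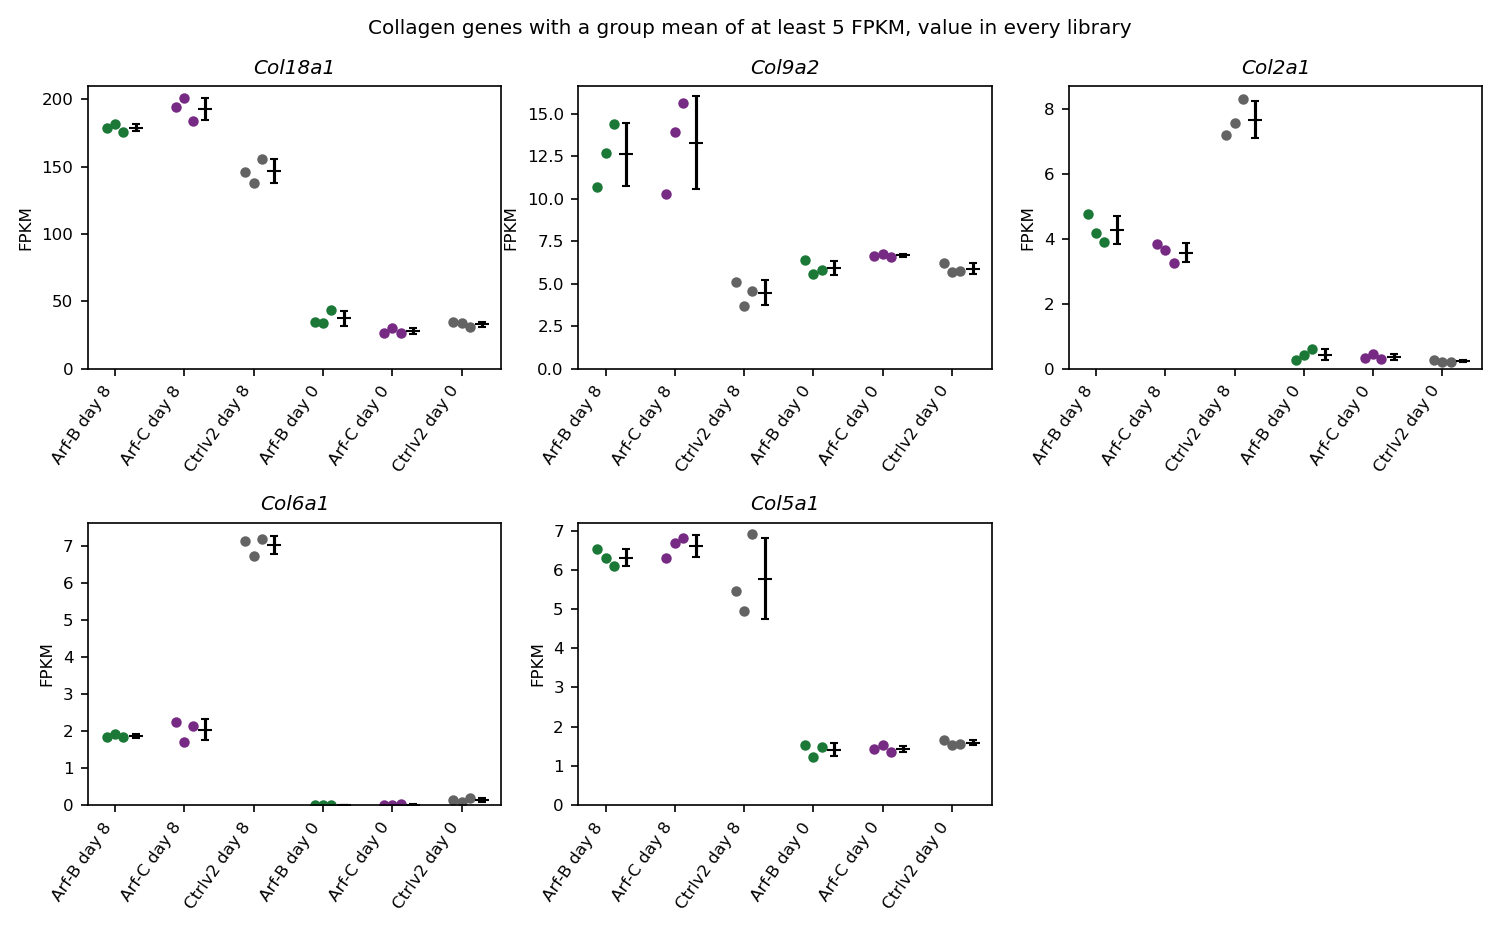
FPKM of the 5 members that reached a group mean of 5 FPKM, in every library (coloured points), with the mean and SD of each group (black, n = 3); day 8 groups are left of day 0 groups, and the axes start at 0. Col9a2 is highest in the Arf-B and Arf-C libraries of day 8, and Col2a1 and Col6a1 in the Ctrlv2 libraries of day 8.

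Among fibrillar chains, Col2a1, both type I chains and Col5a2 were lower, and the type XI chains and Col5a3 higher, in both Arf lines at day 8. Col2a1 (ENSMUSG00000022483, chr15:97975602-98004695, minus strand) encodes the chain of type II collagen, the main fibrillar collagen of cartilage. At day 8 it had 4.76, 4.19 and 3.89 FPKM in Arf-B, 3.84, 3.65 and 3.25 FPKM in Arf-C and 7.19, 7.56 and 8.31 FPKM in Ctrlv2 libraries. At day 0 it had 0.267, 0.421 and 0.593 FPKM in Arf-B, 0.325, 0.453 and 0.292 FPKM in Arf-C and 0.259, 0.21 and 0.198 FPKM in Ctrlv2 libraries. The day 8 libraries of the Arf lines lay below those of Ctrlv2 with no overlap, and the day 0 libraries of the Arf lines lay above those of Ctrlv2 without a call (adjusted p = 0.0759 for Arf-B and 0.219 for Arf-C, limma). For Arf-B at day 0 it was called higher with a pseudocount of 0.1 (adjusted p = 0.0128, limma), with voom (0.0216) and without Arf-B replicate 1 (0.0244). Col2a1 at day 8 was 0.557 times the Ctrlv2 level in Arf-B (log2 -0.72, SE 0.0925, adjusted p = 2.30e-05, limma) and 0.466 times in Arf-C cells (log2 -0.92, adjusted p = 1.86e-06). Its rise from day 0 was 10-fold in each Arf line and 34.6-fold in Ctrlv2 cells, and the difference in log2 response was -0.94 for Arf-B (adjusted p = 6.17e-05, limma) and -1.07 for Arf-C (adjusted p = 1.52e-05). The 6 cartilage markers summed to 2.91 to 4.17 FPKM in the Arf libraries and 3.37 to 4.23 FPKM in the Ctrlv2 libraries of day 8, and the 3 that were tested had median log2 differences of -0.09 (Arf-B) and -0.02 (Arf-C).

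Type XI collagen chains share fibrils with type II. Col11a1 averaged 2.61 ± 0.282 FPKM in Arf-B, 2.95 ± 0.235 FPKM in Arf-C and 1.57 ± 0.102 FPKM in Ctrlv2 cells at day 8 (SD, n = 3 each), higher in the Arf lines by 1.66-fold and 1.88-fold (log2 0.48 and 0.62, adjusted p = 9.09e-05 and 8.46e-06, limma). The ratio of Col11a1 to Col2a1 at day 8 was 0.609 ± 0.0211 in Arf-B, 0.825 ± 0.00464 in Arf-C and 0.205 ± 0.0185 in Ctrlv2 libraries, with no overlap between lines. This ratio is given as a description. Col11a2, its partner, averaged 1.02 ± 0.116 FPKM in Arf-B, 0.742 ± 0.132 FPKM in Arf-C and 0.478 ± 0.081 FPKM in Ctrlv2 cells at day 8. The Arf-C call for Col11a2 (log2 0.24, adjusted p = 0.0387, limma) did not hold when a day 8 library was left out, namely Ctrlv2 replicate 1 (0.0778) or 3 (0.118) or Arf-C replicate 3 (0.157).

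Type V collagen starts and limits fibrils of type I. Its main chain Col5a1 (ENSMUSG00000026837, chr2:27886425-28039514, plus strand) rose in all 3 lines and was not called between them with all libraries. At day 8 it had 6.53, 6.3 and 6.1 FPKM in Arf-B, 6.29, 6.68 and 6.82 FPKM in Arf-C and 5.46, 4.94 and 6.92 FPKM in Ctrlv2 libraries. At day 0 it had 1.54, 1.22 and 1.48 FPKM in Arf-B, 1.43, 1.53 and 1.35 FPKM in Arf-C and 1.66, 1.54 and 1.57 FPKM in Ctrlv2 libraries. Day 8 lay above day 0 in every library, and at day 8 the lines overlapped. The rise by day 8 was 4.47-fold, 4.6-fold and 3.63-fold in Arf-B, Arf-C and Ctrlv2 cells (adjusted p = 1.77e-10, 1.40e-10 and 8.96e-10, limma), and at day 8 the Arf lines differed from Ctrlv2 by log2 0.12 and 0.18 (SE 0.0882, adjusted p = 0.323 and 0.142). Without Ctrlv2 replicate 3 of day 8, Col5a1 was called higher in both (log2 0.24 and 0.29, adjusted p = 0.0249 and 0.00772, limma). Its partner chain Col5a2 averaged 0.273 ± 0.035 FPKM in Arf-B, 0.25 ± 0.0131 FPKM in Arf-C and 0.705 ± 0.0915 FPKM in Ctrlv2 cells at day 8 (log2 -0.42 and -0.45, adjusted p = 0.000301 and 0.00018, limma). Col5a2 reached 0.5 FPKM only in the Ctrlv2 libraries of day 8, the group where it is high, and entered the test through them alone. Col5a1 stood to Col5a2 as 23.4 ± 2.93 in Arf-B, 26.4 ± 2.14 in Arf-C and 8.4 ± 2.49 in Ctrlv2 libraries at day 8, given as a description.

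Col5a3, the third type V chain, was below its Ctrlv2 level at day 0 and above it at day 8 in Arf-B as in Arf-C. It averaged 0.494 ± 0.0474 FPKM in Arf-B, 0.537 ± 0.0524 FPKM in Arf-C and 2.21 ± 0.0364 FPKM in Ctrlv2 cells at day 0 (log2 -1.11 and -1.06, SE 0.0861, adjusted p = 8.11e-08 and 1.11e-07, limma). At day 8 it averaged 0.427 ± 0.0982 FPKM in Arf-B, 0.441 ± 0.129 FPKM in Arf-C and 0.129 ± 0.0928 FPKM in Ctrlv2 cells (log2 0.34 and 0.35, adjusted p = 0.00654 and 0.00508, limma). It therefore fell by day 8 in Ctrlv2 cells (log2 -1.51, adjusted p = 2.13e-10, limma) and was not called in Arf-B (log2 -0.07, adjusted p = 0.502) or Arf-C (log2 -0.10, adjusted p = 0.339). The difference in day response was 1.44 for Arf-B and 1.42 for Arf-C (SE 0.122, adjusted p = 5.38e-07 and 4.97e-07, limma). At day 8 the Ctrlv2 libraries held 22, 2 and 13 reads of Col5a3, near the limit of detection. Col5a3 was not tested in the fits of the compared day 8 groups alone.

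The type I chains, the most common collagen of connective tissue, were low. Col1a2 had 1.16, 0.931 and 0.862 FPKM in Arf-B, 1.23, 0.926 and 0.749 FPKM in Arf-C and 2.72, 2.24 and 2.24 FPKM in Ctrlv2 libraries at day 8, and at most 6 reads in any day 0 library. The Ctrlv2 libraries of day 8 lay above both Arf lines (0.411 and 0.404 times the Ctrlv2 level, log2 -0.78 and -0.79, adjusted p = 1.11e-05 and 8.59e-06, limma). Its partner Col1a1 averaged 0.721 ± 0.113 FPKM in Arf-B, 0.677 ± 0.297 FPKM in Arf-C and 1.16 ± 0.113 FPKM in Ctrlv2 cells at day 8 (log2 -0.33 and -0.38, adjusted p = 0.0293 and 0.0133, limma). The Arf-B call for Col1a1 ended on leaving out Ctrlv2 replicate 1 (adjusted p = 0.0839) or 3 (0.0688) or Arf-B replicate 1 (0.105) or 2 (0.0621), and the Arf-C call on leaving out Arf-C replicate 1 (0.0656). Col27a1, a further fibrillar chain, rose in all 3 lines to 0.64 ± 0.0488 FPKM in Arf-B, 0.659 ± 0.0564 FPKM in Arf-C and 0.468 ± 0.0426 FPKM in Ctrlv2 cells at day 8 and was not called between lines there (adjusted p = 0.111 and 0.0775, limma).

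Among the FACITs, Col9a2 changed in opposite directions over the protocol in the Arf lines and in Ctrlv2. Col9a2 (ENSMUSG00000028626, chr4:121039385-121055322, plus strand) encodes a chain of type IX collagen, which decorates type II fibrils. At day 8 it had 10.7, 12.7 and 14.4 FPKM in Arf-B, 10.3, 13.9 and 15.6 FPKM in Arf-C and 5.11, 3.68 and 4.59 FPKM in Ctrlv2 libraries. At day 0 it had 6.4, 5.56 and 5.82 FPKM in Arf-B, 6.64, 6.75 and 6.59 FPKM in Arf-C and 6.24, 5.69 and 5.73 FPKM in Ctrlv2 libraries. At day 0 the Arf-C libraries lay just above the others without a call (adjusted p = 0.368, limma), and at day 8 every Arf library lay above every day 0 library and every Ctrlv2 library below. At day 8 Col9a2 was 2.82-fold higher in Arf-B and 2.98-fold higher in Arf-C than in Ctrlv2 cells (log2 1.31 and 1.38, SE 0.129, adjusted p = 1.51e-06 and 8.91e-07, limma). It rose 2.12-fold and 1.99-fold over day 0 in Arf-B and Arf-C (adjusted p = 6.00e-06 and 1.64e-05) and fell to 0.759 times in Ctrlv2 (log2 -0.34, adjusted p = 0.0279, limma). The fall in Ctrlv2 did not pass on leaving out replicate 1 of day 0 (adjusted p = 0.0812) or replicate 2 of day 8 (0.14), and its log2 value was -0.22 with libraries scaled to the same sum (adjusted p = 0.177). The difference in day response was 1.31 for Arf-B and 1.22 for Arf-C (SE 0.182, adjusted p = 6.15e-05 and 9.37e-05, limma).

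Its partner Col9a3 was not called between lines at day 8 with all libraries. It averaged 1.47 ± 0.101 FPKM in Arf-B, 1.5 ± 0.217 FPKM in Arf-C and 1.14 ± 0.379 FPKM in Ctrlv2 cells at day 8 (log2 0.22 and 0.24, SE 0.116, adjusted p = 0.161 and 0.133, limma), and 2.02 ± 0.322, 2.58 ± 0.301 and 1.39 ± 0.119 FPKM in Arf-B, Arf-C and Ctrlv2 cells at day 0. Without Ctrlv2 replicate 2 of day 8, Col9a3 was called higher there in both (log2 0.36 and 0.37, adjusted p = 0.0187 and 0.0149, limma). At day 0 it was higher in both Arf lines (log2 0.33 and 0.58, adjusted p = 0.0327 and 0.000794, limma). The Arf-B call ended on leaving out Ctrlv2 replicate 2 (adjusted p = 0.0823) or 3 (0.0893) or Arf-B replicate 1 (0.149) or 2 (0.0504). The ratio of Col9a2 to Col9a3 was 8.59 ± 1.27 in Arf-B, 8.85 ± 1.17 in Arf-C and 4.33 ± 1.87 in Ctrlv2 libraries at day 8, and 2.97 ± 0.292, 2.61 ± 0.303 and 4.24 ± 0.136 at day 0 in the same order of lines. Col9a3 shares 234 exon bases with Tcfl5 on the opposite strand in GENCODE vM21, and no source used here says whether counting used strand, so its values are uncertain.

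Of the remaining FACITs, Col16a1 averaged 1.26 ± 0.0732 FPKM in Arf-B, 1.7 ± 0.144 FPKM in Arf-C and 0.781 ± 0.176 FPKM in Ctrlv2 cells at day 8, so Arf cells had more (log2 0.35 and 0.60, adjusted p = 0.00284 and 2.74e-05, limma). Col22a1, known from tissue junctions such as that of muscle and tendon, averaged 1.11 ± 0.147 FPKM in Arf-B, 1.36 ± 0.112 FPKM in Arf-C and 0.781 ± 0.0742 FPKM in Ctrlv2 cells at day 8. Its Arf-B call (log2 0.25, adjusted p = 0.0161, limma) ended on leaving out Ctrlv2 replicate 2 (0.0599) or Arf-B replicate 1 (0.0768). Col20a1 averaged 1.31 ± 0.258 FPKM in Arf-B, 1.04 ± 0.0654 FPKM in Arf-C and 0.638 ± 0.17 FPKM in Ctrlv2 cells at day 8. Arf-B cells had more of it (log2 0.49, adjusted p = 0.00369, limma), and its Arf-C call (log2 0.32, adjusted p = 0.0422) ended on leaving out Ctrlv2 replicate 2 or 3 or any Arf-C library (0.0633 to 0.166). Col12a1, which lies on type I fibrils, rose to 0.706 ± 0.118 FPKM in Arf-B, 0.743 ± 0.183 FPKM in Arf-C and 0.814 ± 0.174 FPKM in Ctrlv2 cells at day 8, against at most 5 reads in any day 0 library, and was not called between lines (adjusted p = 0.52 and 0.677, limma).

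Both type VI chains that form the common trunk of the microfibril were lower in the Arf lines at day 8. Col6a1 (ENSMUSG00000001119, chr10:76708792-76726168, minus strand) had 1.85, 1.92 and 1.83 FPKM in Arf-B, 2.26, 1.72 and 2.13 FPKM in Arf-C and 7.14, 6.75 and 7.21 FPKM in Ctrlv2 libraries at day 8. At day 0 it had 0, 0 and 0.0104 FPKM in Arf-B (0, 0 and 1 reads), 0, 0.0157 and 0.0181 FPKM in Arf-C (0, 2 and 2 reads) and 0.133, 0.0724 and 0.191 FPKM in Ctrlv2 libraries (17, 8 and 27 reads). Ctrlv2 lay above both Arf lines at both days with no overlap, though the day 0 values are near the limit of detection. Those were not called on the scale with 1 FPKM added (adjusted p = 0.0748 and 0.089, limma), and were called lower in both Arf lines with a pseudocount of 0.1 (adjusted p = 0.000235 and 0.000461) and with voom (4.92e-05 and 0.000302). At day 8 the Arf-B level of Col6a1 was 0.265 times, and the Arf-C level 0.29 times, that of Ctrlv2 (log2 -1.49 and -1.41, SE 0.0731, adjusted p = 8.29e-10 and 1.51e-09, limma). Col6a2 averaged 1.35 ± 0.103 FPKM in Arf-B, 1.74 ± 0.103 FPKM in Arf-C and 3.46 ± 0.437 FPKM in Ctrlv2 cells at day 8 (0.392 and 0.503 times, log2 -0.92 and -0.70, adjusted p = 6.12e-07 and 9.79e-06, limma). The ratio of Col6a1 to Col6a2 at day 8 was 1.38 ± 0.135 in Arf-B, 1.18 ± 0.208 in Arf-C and 2.05 ± 0.204 in Ctrlv2 libraries, given as a description.

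Col6a4 moved the other way over the protocol. It averaged 0.0438 ± 0.0216 FPKM in Arf-B, 0.108 ± 0.0313 FPKM in Arf-C and 0.0367 ± 0.0242 FPKM in Ctrlv2 cells at day 8 and 0.555 ± 0.0176, 0.376 ± 0.06 and 0.562 ± 0.0589 FPKM at day 0 in Arf-B, Arf-C and Ctrlv2 cells, a fall in each (adjusted p = 2.79e-06, 0.00116 and 1.86e-06, limma). Col6a4 shares exon bases with antisense transcripts, so strand was not resolved for it either. The remaining 3 of the 6 Col6a genes stayed below 0.5 FPKM in all groups. Col6a2, Col6a1 and Col18a1 follow each other on chromosome 10 in the same orientation, with 85161 bases and 326009 bases between them. The protein-coding gene in the second gap, Pcbp3, looked at after its values were seen, was higher in the Arf lines at day 8 (means of 5.06 FPKM for Arf-B, 5.39 FPKM for Arf-C and 3.55 FPKM for Ctrlv2; adjusted p = 0.00552 and 0.0017, limma), as Col18a1 was. Over the protocol Pcbp3 fell in each line, to 0.753 times in Arf-B, 0.717 times in Arf-C and 0.412 times in Ctrlv2, whereas Col18a1 rose.

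Type VIII chains form the lattice of Descemet's membrane and of vessel walls. Col8a2 averaged 2.22 ± 0.513 FPKM in Arf-B, 2.13 ± 0.198 FPKM in Arf-C and 1.23 ± 0.307 FPKM in Ctrlv2 cells at day 8, so Arf cells had more (1.8-fold and 1.72-fold, log2 0.53 and 0.49, adjusted p = 0.00229 and 0.00365, limma). Col8a1 did not pass the filter and has no test. Its day 8 means were 0.271 ± 0.0633 FPKM in Arf-B, 0.268 ± 0.0493 FPKM in Arf-C and 0.524 ± 0.0858 FPKM in Ctrlv2 cells.

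Col7a1, which makes the anchoring fibrils of skin, rose in all 3 lines and was not called between them at day 8, where it averaged 1.11 ± 0.181 FPKM in Arf-B, 1.21 ± 0.0933 FPKM in Arf-C and 1.08 ± 0.293 FPKM in Ctrlv2 cells. The membrane-spanning chain Col13a1, found at cell adhesions and at the neuromuscular junction, averaged 0.719 ± 0.176 FPKM in Arf-B, 0.546 ± 0.153 FPKM in Arf-C and 0.46 ± 0.182 FPKM in Ctrlv2 cells at day 8 and 0.631 ± 0.133, 0.762 ± 0.13 and 1.81 ± 0.196 FPKM at day 0. At day 0 both Arf lines had less of it (log2 -0.79 and -0.67, adjusted p = 4.52e-05 and 0.000168, limma). By day 8 Col13a1 fell in Ctrlv2 (log2 -0.95, adjusted p = 1.31e-06, limma) and was not called in Arf-B (log2 0.07, adjusted p = 0.581) or Arf-C (log2 -0.19, adjusted p = 0.145). The difference in day response was 1.02 for Arf-B and 0.76 for Arf-C (adjusted p = 0.000151 and 0.00147, limma). Col23a1, also membrane-spanning, rose in all 3 lines to 0.843 ± 0.172 FPKM in Arf-B, 0.734 ± 0.236 FPKM in Arf-C and 1.04 ± 0.106 FPKM in Ctrlv2 cells at day 8 and was not called between lines. Col26a1 averaged 0.751 ± 0.0137 FPKM in Arf-B, 0.745 ± 0.213 FPKM in Arf-C and 1.19 ± 0.237 FPKM in Ctrlv2 cells at day 8 and was lower in the Arf lines at both days. Its day 8 calls (adjusted p = 0.0186 and 0.015, limma) ended on leaving out Ctrlv2 replicate 2 (0.0929 for Arf-B and 0.0766 for Arf-C), Arf-B replicate 3 (0.0507) or Arf-C replicate 2 (0.0819).

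Of 27 tested genes for chain modification and folding, each Arf line had 13 lower, 4 higher and 10 not called against Ctrlv2 at day 8 (median log2 -0.19 and -0.20, for Arf-B and Arf-C, all genes 0.01 and 0.01). By day 8 in Ctrlv2 cells 20 had risen and 3 fallen (median 0.87, all genes -0.01). Arf-B and Arf-C cells each had 20 risen and 4 fallen (median 0.80 and 0.86, all genes -0.02 in each). Over these days 32.9%, 32.8% and 33.9% of all genes tested rose in Arf-B, Arf-C and Ctrlv2, and 33.8%, 33.8% and 34.4% fell. Among all genes tested at day 8, 16.9% were lower and 16.3% higher in Arf-B, and 16.8% were lower and 16.8% higher in Arf-C, which is the background for this and the next 4 lists. At day 0 the list had 15 lower and 2 higher in Arf-B (median log2 -0.26) and 11 lower and 3 higher in Arf-C (median -0.18), with 20% and 21.5% of all genes lower and 19.1% and 21.2% higher. These day 0 shares are also the background for the day 0 counts of the next 4 lists. Serpinh1, the collagen chaperone HSP47, averaged 190 ± 5.85 FPKM in Arf-B, 190 ± 8.69 FPKM in Arf-C and 294 ± 27.5 FPKM in Ctrlv2 cells at day 8 (log2 -0.62 and -0.62, adjusted p = 5.46e-05 and 5.20e-05, limma). The prolyl hydroxylase subunits P4ha1 (19.3 and 16.8, against 36.4 FPKM in Ctrlv2) and P4ha2 (8.69 and 8.84, against 13.8 FPKM in Ctrlv2) were also lower in Arf-B and Arf-C. Hspa5, the general chaperone BiP, was higher (372 and 355, against 285 FPKM in Ctrlv2; adjusted p = 0.00754 and 0.0246). Sparc, a collagen-binding matricellular protein, was at 43.1 FPKM in Arf-B, 42.7 FPKM in Arf-C and 182 FPKM in Ctrlv2 cells (log2 -2.05 and -2.06), and Creb3l1, a transcription factor of collagen secretion, at 12.4, 12.2 and 27.3 FPKM.

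Of 12 tested genes of propeptide processing and cross-linking, Arf-B had 4 higher and 3 lower and Arf-C 3 higher and 5 lower at day 8 (median log2 -0.07 and -0.05). At day 0 both lines had 8 of the 12 lower, with 2 higher in Arf-B and 1 in Arf-C (median log2 -0.55 in each). Bmp1, the protease that removes C-propeptides, was at 4.97 FPKM in Arf-B, 5.06 FPKM in Arf-C and 15.3 FPKM in Ctrlv2 cells (adjusted p = 1.24e-09 and 1.51e-09, limma). The cross-linking enzyme Loxl2 was at 6.95, 5.97 and 25.5 FPKM in Arf-B, Arf-C and Ctrlv2 cells (adjusted p = 2.70e-10 and 7.33e-11, limma). Adamts14, which removes N-propeptides, was higher in the Arf lines (2.31 and 2.61, against 1.22 FPKM in Ctrlv2). The enhancers of C-propeptide removal Pcolce and Pcolce2 fell by day 8 in Ctrlv2 cells, to 4.19 FPKM at day 8 against 44.7 FPKM at day 0, and to 0.199 against 13 FPKM. Pcolce and Pcolce2 were also lower at day 8 in Arf-B (3.81 against 23.4 and 0.554 against 8.29 FPKM) and Arf-C (2.82 against 25 and 0.89 against 7.33 FPKM).

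Of 8 tested collagen receptors, Arf-B had 5 and Arf-C 4 at lower levels than Ctrlv2 at day 8, and the rest were not called (median log2 -0.27 and -0.28). At day 0 each line had 4 of the 8 lower (median log2 -0.22 in each). Itgb1, the beta chain of the collagen-binding integrins, was at 89, 88.3 and 135 FPKM and the endocytic receptor Mrc2 at 21.1, 21.5 and 28.9 FPKM in Arf-B, Arf-C and Ctrlv2 cells. Mrc2 rose over the protocol in Ctrlv2 (28.9 FPKM at day 8 against 0.458 FPKM at day 0, log2 4.36, adjusted p = 2.47e-17, limma), and the receptor kinase Ddr1 was at 17.4 against 6.79 FPKM (log2 1.24). Mrc2 and Ddr1 were also higher at day 8 in Arf-B (21.1 against 0.543 and 13.7 against 3.28 FPKM) and Arf-C (21.5 against 0.402 and 14.4 against 2.66 FPKM).

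Of 9 tested degrading enzymes and inhibitors, Arf-B had 3 and Arf-C 4 at lower levels than Ctrlv2 at day 8, and the rest were not called (median log2 -0.18 and -0.28). The 3 of 9 for Arf-B are near the 33.2% of all genes called. At day 0 each line had 5 lower and 2 higher (median log2 -0.41 and -0.34). The lysosomal protease Ctsl was at 95.3, 97.6 and 208 FPKM and the membrane collagenase Mmp14 at 6.27, 5.71 and 12.6 FPKM in Arf-B, Arf-C and Ctrlv2 cells. Of 11 tested proteoglycans and adaptors, Arf-B had 3 higher and 4 lower and Arf-C 3 higher and 5 lower at day 8 (median log2 -0.18 and -0.24). At day 0 Arf-B had 1 higher and 1 lower and Arf-C 2 higher and 2 lower of the 11. These shares lie below the 39% and 42.8% of all genes called at day 0. Fibronectin (Fn1) was higher in the Arf lines (62 and 57.9, against 35.3 FPKM in Ctrlv2; adjusted p = 0.00223 and 0.00584, limma), as was Tgfbi (6.57 and 7.45, against 3 FPKM), while Thbs1 (4.61 and 4.55, against 7.22 FPKM) and Ctgf (5.15 and 4.68, against 9.91 FPKM) were lower.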

How the data were processed

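The deposited table gives FPKM per gene and library, with gene positions and lengths. The submitters' processing notes name HISAT2, featureCounts, DESeq2 and mm10, with no role or version. Multiplied by gene length and divided by each library's smallest step, all 413772 deposited FPKM values above 0 gave whole reads within a tolerance of 0.001, which is the depth used here. At that depth 3 reads on 1 kilobase equal 0.093 to 0.282 FPKM, a limit that covers counting error only. Positions matched GENCODE vM21 for 98.11% of genes and all 38 members.

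Values were analysed as log2(FPKM + 1) with limma 3.58.1 (statmod 1.5.0, R 4.3.3), in a model with a coefficient per group over all 18 libraries, with moderation by trend and robust settings, for the 17200 genes that reached 0.5 FPKM in 3 or more libraries, the set over which Benjamini-Hochberg adjustment ran. The 11 comparisons were day 8 against day 0 per line, lines against each other per day, and differences in day response. A comparison of 3 against 3 libraries for a ratio of chains was left without a test. Alternatives were a smaller pseudocount (0.1), leaving out the filter, requiring a mean of 1 FPKM, median-ratio and same-sum scaling, a replicate block, voom on the recovered reads, fits of the compared groups alone, and each library left out. Figures used matplotlib 3.10.9, Python 3.11.15, pandas 2.3.3 and numpy 2.4.6.

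Members with a group mean of at least 0.5 FPKM are named, and those at 5 FPKM have every library listed. Of other lists, up to 4 called genes with the largest change, at least 5 FPKM in the higher group and no overlap were named, from the change over days in Ctrlv2 or from both Arf lines at day 8. The members and lists were chosen with earlier results of these data known.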

Additional observations from a re-analysis of the deposited data

Results flagged for a closer look

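For 12 members in Arf-B and 15 in Arf-C the day response differed from that of Ctrlv2 by the test of the difference itself (limma, adjusted p below 0.05; 33.5% and 38.3% of all genes tested). In Arf-B the differences in log2 change were 1.44 for Col5a3, 1.31 for Col9a2, 1.02 for Col13a1, 0.72 for Col20a1, 0.54 for Col11a2, 0.41 for Col11a1 and 0.30 for Col16a1. They were negative for Col6a1 (-1.31), Col2a1 (-0.94), Col6a2 (-0.78), Col1a2 (-0.77) and Col5a2 (-0.40). In Arf-C they were 1.42 for Col5a3, 1.22 for Col9a2, 0.76 for Col13a1, 0.63 for Col18a1, 0.62 for Col20a1, 0.49 for Col16a1, 0.41 for Col11a1, 0.37 for Col22a1, 0.36 for Col11a2 and 0.28 for Col6a4. They were negative for Col6a1 (-1.25), Col2a1 (-1.07), Col1a2 (-0.79), Col6a2 (-0.66) and Col5a2 (-0.42). In both Arf lines Col9a2, Col13a1, Col5a3, Col20a1 and Col2a1 kept their calls under every alternative in which they were tested. Col11a2 in Arf-B and Col18a1 in Arf-C also kept theirs. The remaining calls were lost under some settings or without some libraries. The Arf-B call for Col16a1 (adjusted p = 0.0461) held in 3 of 19 settings and ended on leaving out any library of either group but Ctrlv2 day 8 replicate 3 (adjusted p = 0.0543 to 0.0994). The Arf-C call for Col6a4 (adjusted p = 0.0404) ended in 9 of 18 settings, among them 7 single libraries (0.0508 to 0.103) and the replicate block (0.0514). The Arf-C call for Col11a2 (adjusted p = 0.024) ended on leaving out replicate 3 of Ctrlv2 or of Arf-C at day 8 (0.0526 and 0.0616) or at day 0 (0.0642 and 0.0526).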

How the results depend on the processing

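The differences in day response of members near 0 at day 0 depend on the log scale. With voom on the recovered reads the sign turned in Arf-B for Col6a1 (2.56), Col6a2 (0.76), Col16a1 (-0.63) and Col1a1 (1.91), and in Arf-C for Col6a1 (1.53), Col11a1 (-0.09), Col16a1 (-0.99), Col23a1 (1.49) and Col5a2 (0.22). Called with the turned sign were Col6a1 and Col1a1 in Arf-B (adjusted p = 0.0158 and 0.0129, limma voom) and Col23a1 in Arf-C (0.0367). The voom scale gives ratios of reads, and the main scale adds 1 FPKM.

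With a filter at a mean of 1 FPKM, which tests fewer members, the calls numbered 9, 9 and 8 for the day responses of Arf-B, Arf-C and Ctrlv2. At day 0 against Ctrlv2 they numbered 1 for Arf-B and 3 for Arf-C, at day 8 they numbered 7 in each line, with 1 between the Arf lines at day 0, and 5 and 6 for the differences in day response. Against Ctrlv2 at day 0 a pseudocount of 0.1 gave 10 (Arf-B) and 13 (Arf-C), and 7 for the difference in Arf-B. With voom the day 0 counts were 11 for Arf-B, 15 for Arf-C and 1 between the Arf lines, and with the compared groups alone 5 for Arf-C at day 0. The cause was not tested.

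Scaling libraries to the same sum put the median log2 change of all genes at 0.14 for the day response of Arf-B, against -0.02 without it, and by less in the other comparisons. It gave 1 call between the Arf lines at day 0, and raised the share of higher calls among all called genes at day 8 to 69% from 49% for Arf-B against Ctrlv2 and to 63.6% from 50% for Arf-C, and for the day responses to 62.6% from 49.4% (Arf-B) and to 60.4% from 49.2% (Arf-C). The share for the difference of Arf-B was 64.3% against 52.1%, and that between the Arf lines at day 0 43.5% against 30.5%. 

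Of 264 results for single members, 264 kept their side of the threshold with median-ratio scaling, 257 with the block, 256 without the filter, 253 with the same sum, 237 with the pseudocount of 0.1 and 227 with voom, and with each library left out 1769 of 1857 did. Where either fit was called the direction had to match as well, and elsewhere direction was not compared. Leaving out each library, the calls ranged from 21 to 22 (Arf-B), 22 to 22 (Arf-C) and 21 to 22 (Ctrlv2) for the day responses. Against Ctrlv2 they ranged from 3 to 4 for Arf-B and 4 to 7 for Arf-C on day 0, and from 13 to 15 and 14 to 15 on day 8. Between the Arf lines they ranged from 0 to 1 at day 0, the 1 arising without replicate 2 of either line, and from 0 to 0 at day 8, and for the differences from 10 to 13 and 13 to 15.

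With the replicate number as a block the counts were 21, 22 and 22 for the day responses of Arf-B, Arf-C and Ctrlv2, 4 and 6 against Ctrlv2 at day 0, 16 and 14 at day 8, 0 between the Arf lines, and 11 and 14 for the differences. Deviations of same-numbered libraries from their group means correlated at -0.25 to 0.20, with 3 of 45 pairs over 0.1, so no pairing was assumed. Depth limits the day 8 libraries most, since the smallest, replicate 2 of Ctrlv2, held 10432590 reads.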
